A study of Danio rerio with 4 samples.

Results

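Most of the genes described here act in building ribosomes: subunits of RNA polymerases I and III, proteins of small nucleolar ribonucleoproteins (snoRNPs), nucleolar scaffold proteins, and assembly factors of both ribosomal subunits. They were chosen by gene symbol, from symbol beginnings such as polr1, polr3, nop, nol, utp and rrp and from single names such as fbl, ncl, npm1, dkc1 and bop1, with at least 1 RPKM (reads per kilobase of a gene, relative to the sequenced reads) in either deposited table. The symbol rule matched 67 gene IDs, of which 51 reached 1 RPKM, out of 27205 genes listed in either table. NOL4L, at 0.643 RPKM at 4 hpf and 0.246 RPKM at 2 hpf, was just outside the level filter, and POLR1H, at 1.25 and 0.965 RPKM in the same order, just inside it. The other 15 IDs (among them IMP3, NOP10, nop14, nop53, NOP58, POLR1A, POLR3A, POLR3D, rrp1, rrp7a, utp18, UTP20, UTP23 and UTP6) carried no value and were not analysed here. Symbols are written as the reference table of Ensembl IDs gives them, some in human style.

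The samples were zebrafish (Danio rerio) embryos of wild-type genotype, injected with mRNA for FLAG-tagged Ddx3xb, a DEAD-box RNA helicase, and collected at 4 hours post-fertilization (hpf) in the later group and at 2 hpf in the earlier group, with 2 biological replicates at each age. RNA was recovered from the lysates with anti-FLAG beads and sequenced (RIP-seq), so both groups carry the injected mRNA. The sample descriptions also call all 4 samples control, which the sources used here do not explain. The values are the authors' mean RPKM per gene and age, in 1 table per age.

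No replicate values were available, so no value below has an SD, no difference was tested, and each difference is one of size between 2 tables. Counts were not given, which leaves the depth behind each value unknown. Neither an input nor a mock precipitate was among the samples, so a value measures abundance in the precipitate and says nothing of enrichment. In whole embryos, a change in the number of cells and a change in RNA per cell cannot be told apart. The age labels went against a list of 20 zygotic developmental genes, picked to check the labels. All 15 of them that were measured were lower at 4 hpf, where 73.0% of all genes compared were higher. Of these, krt4, krt92, cldne, GATA5, mixl1 and foxd5 reached 1 RPKM in the 2 hpf table only, so the filter fixed their direction. The others included noto (9.21 RPKM at 4 hpf and 125 RPKM at 2 hpf) and tbx16 (1.25 and 44.2 RPKM in the same order), with large differences. The smallest difference was that of her5 (22.9 and 28.2 RPKM). The names 4 hpf table and 2 hpf table below are those labels, and every direction rests on them.

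Ribosomes are assembled mainly in the nucleolus. RNA polymerase I makes the long precursor of the large ribosomal RNAs, and RNA polymerase III makes the smallest ribosomal RNA and the transfer RNAs. SnoRNPs modify the precursor, the small-subunit processome folds and cleaves it, and a separate set of factors matures the large subunit. Early fish embryos live on ribosomes and messenger RNAs loaded into the egg, before their own genome is transcribed in earnest.

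Most of the 51 genes had a higher RPKM in the 4 hpf table, as had most genes of the series. The table labelled 4 hpf held between 0.294 and 934 RPKM for them, with a median of 23.8 RPKM, and the 2 hpf table between 0.965 and 311 RPKM, with a median of 18.1 RPKM. At least 50 RPKM was reached by 18 of them in the 4 hpf table and by 5 in the 2 hpf table. Their summed RPKM was 3097 in the 4 hpf table and 1416 in the 2 hpf table, a ratio of 2.19. This was 0.557% of the summed RPKM of all genes at 4 hpf and 0.192% at 2 hpf. These shares depend on a few dominant genes. The highest single value was 138245 RPKM of a summed 556384 in the 4 hpf table, and 301160 RPKM of 737850 in the 2 hpf table. Nucleolin (ncl) and dyskerin (DKC1) alone made up 46.0% of the sum at 4 hpf and 36.7% at 2 hpf. Across the 51 genes the log2(RPKM + 1) levels of the tables gave Pearson's r of 0.88 and Spearman's rho of 0.84, against 0.80 and 0.74 over all 13341 genes that reached 1 RPKM in one of the tables. These correlations are across genes that share 2 tables, and without polr3gla the values for the group were 0.94 and 0.90.

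**Figure D1:**
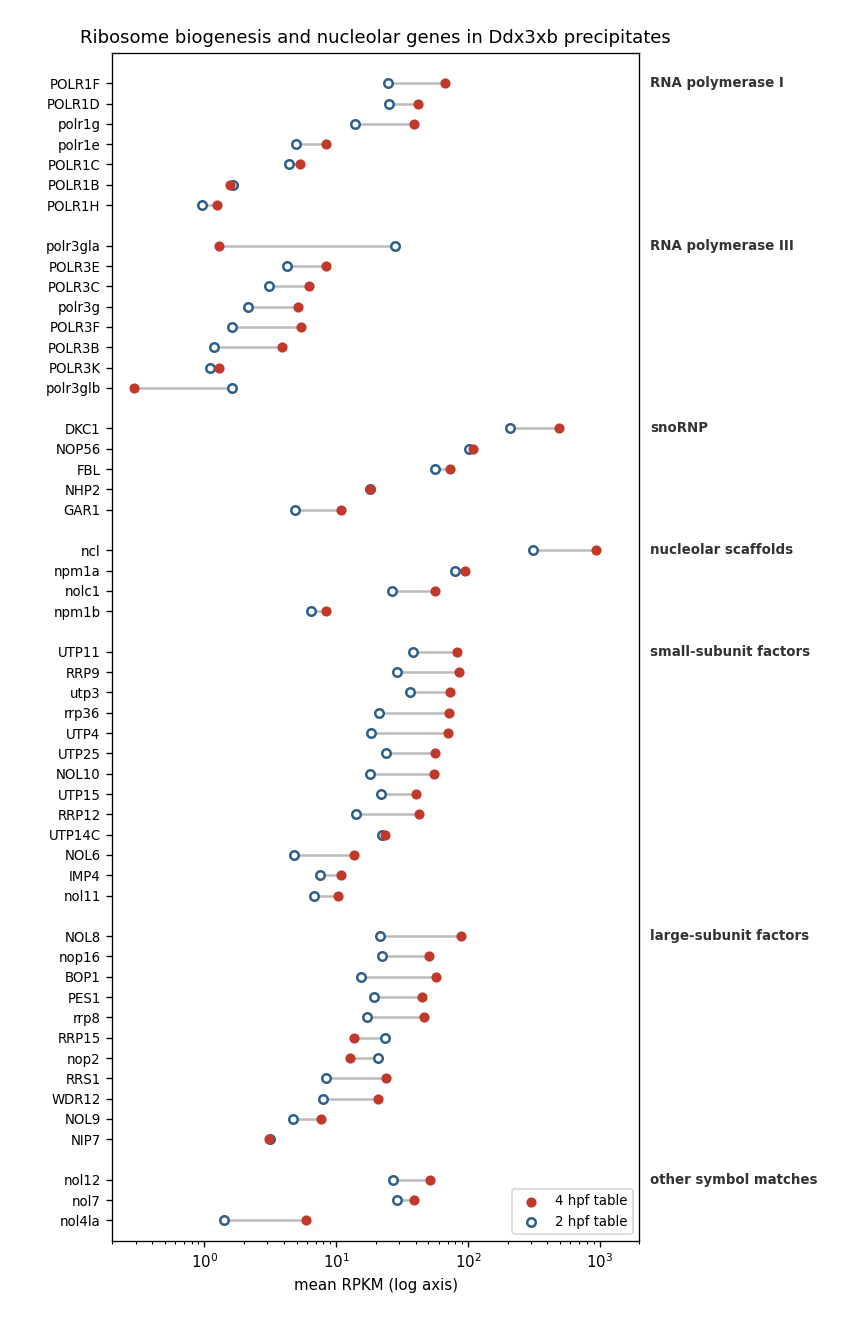
Mean RPKM (log axis) of each of the 51 genes in the 4 hpf table (filled red) and the 2 hpf table (open blue), sorted by level within each role. Most red points lie to the right of the blue ones, while polr3gla, polr3glb, RRP15 and nop2 lie clearly the other way. Each point is 1 mean without an error bar.

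The difference between the ages was read as log2(RPKM + 1) in the 4 hpf table minus that in the 2 hpf table, on which the differences of low genes come out too small. Of the 51 genes, 44 had a higher value in the 4 hpf table (86.3%), as had 9736 of all 13341 genes (73.0%). At a difference of at least 1, 24 of the 51 were higher and 2 lower, where 33.0% of all genes were higher and 10.9% lower. These directions follow the scaling: 25 of the 51 were higher when the tables were scaled to an equal median ratio, and 30 when they were quantile normalized or scaled by a sum that leaves out the 100 highest genes. When the tables were scaled to an equal sum, 47 were higher. The all-gene median difference moved too, to -0.09 at an equal median ratio and 0.22 after quantile normalization. It was 0.09 by the sum without the 100 highest genes and 0.92 with an equal sum. As deposited, the median difference over all genes was 0.66, or 1.58-fold, and differences are given below relative to it. A gene was called above or below at 1 or more from that median, which is 2-fold.

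Relative to that median, 4 of the 51 genes were above (7.84%) and 4 below (7.84%), where 7.85% of all genes were above and 21.2% below. Among the 4 below, polr3glb reached 1 RPKM in the 2 hpf table only. The 51 genes had a median relative difference of 0.31 as deposited, which came to -0.02 after quantile normalization and to -0.01 with a minimum of 5 RPKM in place of 1. Level moved with this value. Among genes with a mean of at least 20 RPKM over both tables, the 26 members had a median of 0.53 and the 1828 genes of the whole series 0.51. In that class, 4 of the 26 members (15.4%) were above and 0 below, against 24.5% and 9.35% of all genes of the class. Among genes with a mean of 5 to 20 RPKM the medians were -0.10 for 14 members and 0.32 for 3975 genes. In that class 0 members were above and 3 below (21.4%), against 12.3% and 12.1% of all genes of the class. Under 5 RPKM the medians were -0.43 for 11 members and -0.24 for 7538 genes, with 0 members above and 1 below (9.09%), against 1.45% and 28.9%. In the upper class, which holds 26 of the 51, the members' median was thus close to that of all genes, with smaller shares above and below. In the class of 5 to 20 RPKM the members' median was the lower one.

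**Figure D2:**
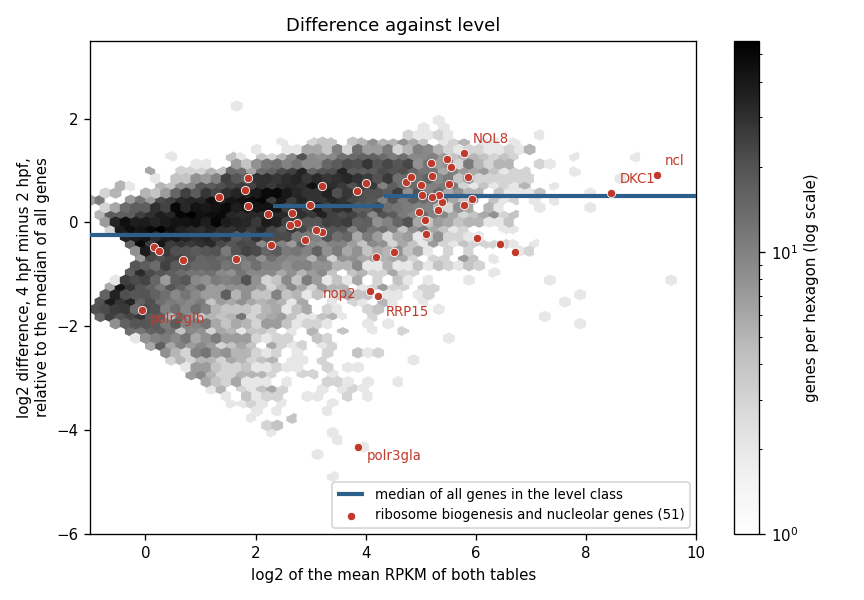
Relative log2 difference (4 hpf minus 2 hpf) against the log2 mean RPKM of both tables. Grey hexagons count all 13341 genes, blue bars are the median of all genes in 3 level classes (under 5, 5 to 20, and at least 20 RPKM), and red points are the 51 genes. Of the most abundant members, DKC1 (0.57) lies near the blue bar of its class (0.51) and ncl (0.92) above it. NOP56 (-0.57), npm1a (-0.42) and FBL (-0.31) lie below that bar. The gene polr3gla lies far below the bar of its own class, at -4.31.

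RNA polymerase I subunits with a polr1 symbol were spread over a wide range of levels with small relative differences. Subunits that RNA polymerases I, II and III share carry polr2 symbols, which the rule does not match, and are given with RNA polymerase II. All 7 polr1 genes lay within 2-fold of the all-gene median, with a median relative difference of -0.01. Of all genes, 7.85% were above and 21.2% below by 2-fold. POLR1F, a stalk subunit, was at 66.5 RPKM in the 4 hpf table and 24.5 RPKM in the 2 hpf table. The gene polr1g was at 39.1 RPKM at 4 hpf and 13.8 RPKM at 2 hpf. These were the highest relative differences of the set, at 0.74 and 0.78.

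POLR1D, a subunit shared with RNA polymerase III, was at 42.1 RPKM at 4 hpf and 25.3 RPKM at 2 hpf. Its partner in both enzymes, POLR1C, was lower in level and close between the tables, at 5.35 RPKM at 4 hpf and 4.40 RPKM at 2 hpf. The gene polr1e stood at 8.40 RPKM at 4 hpf and 4.98 RPKM at 2 hpf. The lowest were POLR1B, a subunit of the catalytic core, at 1.56 RPKM at 4 hpf and 1.66 RPKM at 2 hpf, and the small subunit POLR1H, given above. The 3 most abundant of the 7 were thus also the 3 with the highest relative differences.

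The genes with a polr3 symbol held the widest difference of all 51 genes. The gene polr3gla (ENSDARG00000012044) was at 1.30 RPKM in the 4 hpf table and 27.8 RPKM in the 2 hpf table, 21.4-fold lower at 4 hpf. Its relative difference was -4.31. Of the 13341 genes compared, 29 had a lower one, as did 22 of the 2582 genes that reached 20 RPKM at either age. It reached 20 RPKM in the 2 hpf table only, so its place in that class rests on its own high value there. The paralog polr3glb was also lower, at 0.294 RPKM at 4 hpf and 1.62 RPKM at 2 hpf, a relative difference of -1.68 from low levels that came to -0.64 with a pseudocount of 5. It reached 1 RPKM in the 2 hpf table only, so the filter favoured this direction. Reads that both paralogs share may have been divided between them.

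The products of polr3g and polr3gl genes are known from human and mouse as alternative forms of 1 subunit, of which only 1 sits in each polymerase. Against both polr3gl genes, polr3g was higher at 4 hpf as deposited, at 5.17 RPKM there and 2.15 RPKM at 2 hpf. Within a table the ratio of 2 genes does not depend on a scaling factor. The ratio of polr3g to polr3gla was 3.98 in the 4 hpf table and 0.0771 in the 2 hpf table. The more abundant of these forms was thus polr3g in the 4 hpf table and polr3gla in the 2 hpf table. This pair was chosen after its values were seen.

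The other subunits with a polr3 symbol were low in both tables and lay within 2-fold of the all-gene median. Over the 8 polr3 symbols, 0 were above and 2 below (25%), against 7.85% and 21.2% of all genes. The 2 below were polr3gla and polr3glb, of which polr3glb passed the filter through the 2 hpf table only. POLR3B, of the catalytic core, was at 3.87 RPKM at 4 hpf and 1.19 RPKM at 2 hpf. POLR3F and POLR3C, which form a subcomplex with the polr3g product, were at 5.41 and 6.25 RPKM at 4 hpf and at 1.63 and 3.09 RPKM at 2 hpf. POLR3E stood at 8.43 RPKM at 4 hpf and 4.24 RPKM at 2 hpf, and POLR3K at 1.28 and 1.10 RPKM in the same order. All 6 of these had a higher RPKM in the 4 hpf table as deposited, as had 73.0% of all genes. The median relative difference of the 6 was 0.25. Over the 8 polr3 symbols the higher ones were 6 of 8 as deposited and 3 of 8 with the median ratio made equal. They were 6 with an equal sum or quantile normalization, and 5 with a sum without the 100 highest genes.

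The measured box C/D snoRNP proteins were close between the tables as deposited, and the box H/ACA proteins were divided. The box C/D particles carry the ribose methyltransferase fibrillarin (FBL), which was at 72.9 RPKM at 4 hpf and 56.7 RPKM at 2 hpf. Its core partner NOP56 was at 108 RPKM at 4 hpf and 102 RPKM at 2 hpf. The box H/ACA particles carry the pseudouridine synthase dyskerin (DKC1, ENSDARG00000016484), which was at 491 RPKM at 4 hpf and 208 RPKM at 2 hpf. It ranked 33 of 24904 listed genes at 4 hpf and 61 of 25804 at 2 hpf. GAR1 was far lower in level with a similar difference, at 10.9 RPKM at 4 hpf and 4.91 RPKM at 2 hpf, and NHP2 was level at 18.2 RPKM in both tables. The ratio of DKC1 to GAR1 was 45.2 at 4 hpf and 42.5 at 2 hpf, while that of DKC1 to NHP2 was 27.0 at 4 hpf and 11.4 at 2 hpf. None of the 5 was called as deposited, where 7.85% of all genes were above and 21.2% below. NHP2, at a relative difference of -0.66, was past the call after quantile normalization (-1.13) and at a minimum of 5 RPKM (-1.02). The median relative difference of the 5, -0.31, ran from -0.76 after quantile normalization to 0.31 without a filter. It was 0.02 at a pseudocount of 5.

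The nucleolar scaffold proteins were divided as well. Nucleolin (ncl, ENSDARG00000002710), which binds the ribosomal RNA precursor, was the highest of the 51 genes, at 934 RPKM in the 4 hpf table and 311 RPKM in the 2 hpf table. It ranked 17 and 40 of all genes in these tables, and its relative difference of 0.92 was short of the call as deposited and past it, at 1.08, after quantile normalization. Nucleophosmin is a chaperone of the outer nucleolus. Its gene npm1a was at 94.3 RPKM at 4 hpf and 79.3 RPKM at 2 hpf, and npm1b at 8.40 RPKM at 4 hpf and 6.48 RPKM at 2 hpf. The ratio of npm1a to npm1b was 11.2 at 4 hpf and 12.2 at 2 hpf, whereas the ratio of ncl to npm1a was 9.91 at 4 hpf and 3.92 at 2 hpf. The gene nolc1, whose product shuttles snoRNPs, was at 56.6 RPKM at 4 hpf and 26.6 RPKM at 2 hpf.

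**Figure D3:**
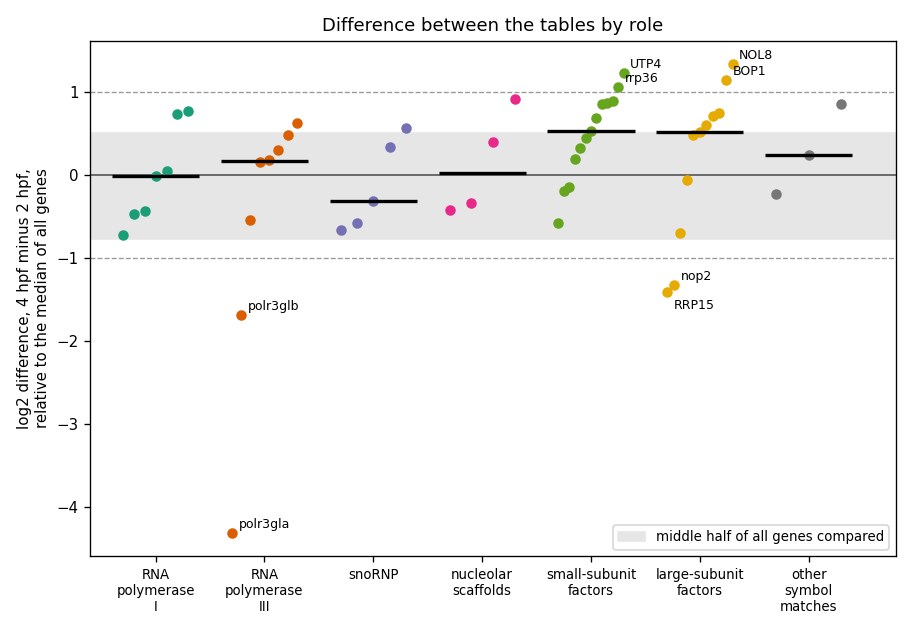
Relative log2 difference (4 hpf minus 2 hpf) of each gene, in 7 roles, with the role's median as a black bar. The grey band spans the middle 50% of all genes compared and the dashed lines mark 2-fold. The highest medians are those of the small-subunit factors (0.53) and large-subunit factors (0.52), and the 8 genes past a dashed line are named. All genes with a mean of at least 20 RPKM have a median of 0.51.

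All 13 small-subunit factors had a higher RPKM in the 4 hpf table as deposited, as had 73.0% of all genes. Of the 13, 10 lay above the all-gene median, and the median relative difference of the role was 0.53. That median was 0.04 after quantile normalization and 0.17 with a filter of 5 RPKM, and 8 of the 13 were higher at 4 hpf once the median ratio was made equal. After quantile normalization 9 were higher, with a sum without the 100 highest genes 10, and with an equal sum 13. The all-gene median difference moved with these scalings too, as given above. UTP4 (ENSDARG00000017675), a processome protein known in human as cirhin, was at 70.6 RPKM at 4 hpf and 18.3 RPKM at 2 hpf, a relative difference of 1.23. The gene rrp36 (ENSDARG00000032516) was at 72.3 RPKM at 4 hpf and 21.2 RPKM at 2 hpf, a relative difference of 1.06. Only these were called in this role (15.4% above and 0% below), against 7.85% and 21.2% of all genes. Both had a mean of at least 20 RPKM, a class in which 24.5% of all genes were above and 9.35% below. After quantile normalization the relative differences of UTP4 and rrp36 were 0.76 and 0.59.

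Just short of the call were NOL10 at 55.3 RPKM at 4 hpf and 18.1 RPKM at 2 hpf, RRP9 at 86.2 and 29.2 RPKM in the same order, and RRP12 at 42.3 and 14.0 RPKM. RRP9 is a protein of the snoRNP that guides the first cleavages, and RRP12 helps export the subunit. NOL6 was lower in level, at 13.8 RPKM at 4 hpf and 4.77 RPKM at 2 hpf. UTP25, known in zebrafish as Def for its role in the growth of digestive organs, was at 56.2 RPKM at 4 hpf and 23.97 RPKM at 2 hpf. UTP11 and utp3 had the highest levels of the role at 2 hpf. They were at 83.1 and 73.4 RPKM at 4 hpf and at 38.01 and 36.4 RPKM at 2 hpf.

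UTP15, of the same early subcomplex as UTP4, was at 40.4 RPKM at 4 hpf and 21.7 RPKM at 2 hpf, a relative difference of 0.20. The remaining members, IMP4, nol11 and UTP14C, lay below the all-gene median. IMP4 was at 10.9 RPKM at 4 hpf and 7.59 RPKM at 2 hpf, and nol11 at 10.2 and 6.81 RPKM in the same order. UTP14C was nearly level as deposited, at 23.5 RPKM at 4 hpf and 22.1 RPKM at 2 hpf. Its relative difference was -0.58, and past the call at -1.05 after quantile normalization.

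The large-subunit factors were the only role with calls in both directions. Of the 11, 2 genes were above (18.2%), 2 below (18.2%) and 7 between, against 7.85% and 21.2% of all genes. The 2 above had a mean of at least 20 RPKM, a class in which 24.5% of all genes were above. The 2 below had a mean of 5 to 20 RPKM, where 12.1% of all genes were below. NOL8 (ENSDARG00000044143) had the highest relative difference of all 51 genes, 1.34, at 89.2 RPKM at 4 hpf and 21.5 RPKM at 2 hpf. BOP1 (ENSDARG00000063627) followed at 56.9 RPKM at 4 hpf and 15.5 RPKM at 2 hpf, a relative difference of 1.15. After quantile normalization the relative differences of NOL8 and BOP1 were 0.86 and 0.65. Bop1 acts in a complex with Pes1 and Wdr12 that is needed to mature the large subunit.

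Both partners were higher at 4 hpf too, short of the call. PES1, known in zebrafish as pescadillo, was at 45.2 RPKM at 4 hpf and 19.3 RPKM at 2 hpf, and WDR12 at 20.6 and 7.95 RPKM in the same order. The ratio of PES1 to WDR12 was 2.19 at 4 hpf and 2.43 at 2 hpf, and that of BOP1 to PES1 was 1.26 at 4 hpf and 0.800 at 2 hpf. The order of BOP1 and PES1 was therefore not the same in the 2 tables.

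In the other direction, RRP15 (ENSDARG00000013478) was at 13.6 RPKM at 4 hpf and 23.6 RPKM at 2 hpf, a relative difference of -1.41. The gene nop2 (ENSDARG00000043304), a methyltransferase of the large ribosomal RNA, was at 12.8 RPKM at 4 hpf and 20.8 RPKM at 2 hpf, a relative difference of -1.32. Both were lower at 4 hpf under every scaling tried. Their relative differences fell short of the call with a pseudocount of 5 (-0.94 for RRP15 and -0.85 for nop2) and without a filter (-0.80 and -0.71). At 2 hpf both were within the range of BOP1, PES1, nop16 and NOL8 (15.5 to 22.4 RPKM) or just above it. At 4 hpf RRP15 and nop2 were below all of these (45.2 to 89.2 RPKM). The genes of that range include NOL8 and BOP1, which were called above. Of the other large-subunit factors, WDR12 (20.6 RPKM) and RRS1 (23.8 RPKM) were nearer to RRP15 and nop2 at 4 hpf. NOL9 (7.63 RPKM) and NIP7 (3.07 RPKM) were below both at that age.

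Among the rest of the large-subunit factors, RRS1 was at 23.8 RPKM at 4 hpf and 8.31 RPKM at 2 hpf. The methyltransferase gene rrp8 was at 46.7 RPKM at 4 hpf and 17.3 RPKM at 2 hpf, and nop16 at 50.9 and 22.4 RPKM in the same order. NOL9, a kinase acting on RNA ends, was at 7.63 RPKM at 4 hpf and 4.67 RPKM at 2 hpf, close to the all-gene median. NIP7 was low and level, at 3.07 RPKM at 4 hpf and 3.16 RPKM at 2 hpf.

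The symbol rule also took in 3 genes placed in none of these roles. The gene nol12 was at 51.8 RPKM at 4 hpf and 27.2 RPKM at 2 hpf, and nol7 at 39.3 and 28.7 RPKM in the same order. The gene nol4la, a relative of NOL4L, was at 5.89 RPKM at 4 hpf and 1.40 RPKM at 2 hpf. None of the 3 was called, where 7.85% of all genes were above and 21.2% below.

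Ribosome biogenesis genes whose symbols the rule does not match had a similar median over all levels, but higher medians within the level classes. Of 148 listed symbols, 112 had a gene at 1 RPKM or more, on 113 IDs, of which 13 were above (11.5%) and 4 below (3.54%) the all-gene median by 2-fold, against 7.85% and 21.2% of all genes. This balance followed the scaling. Once the median ratio was made equal 3 were above and 7 below, against 6% and 22.3% of all genes. After quantile normalization they were 2 and 9, against 4.28% and 20.1%. The balance also followed level. All 13 above were among the 50 IDs with a mean of at least 20 RPKM (26%), where 24.5% of all genes were above. In that class 2% of the list was below, against 9.35% of all genes. The median relative difference of the list was 0.28, close to the 0.31 of the 51 genes. At a mean of 20 RPKM or more the medians were 0.65 for the list and 0.53 for the members. At 5 to 20 RPKM they were 0.13 and -0.10, and under 5 RPKM 0.13 and -0.43. At 5 to 20 RPKM 2.17% of the list was below, against 21.4% of the members and 12.1% of all genes. Of the 113 IDs, 104 had a higher RPKM at 4 hpf as deposited, as had 73.0% of all genes. CEBPZ, whose yeast counterpart Noc1 acts in large-subunit assembly, had the highest value of 1.62, at 188 RPKM at 4 hpf and 38.02 RPKM at 2 hpf. MPHOSPH10, of the small-subunit processome, was at 241 RPKM at 4 hpf and 70.6 RPKM at 2 hpf, and tcof1, the gene of the RNA polymerase I cofactor treacle, at 104 and 31.1 RPKM in the same order.

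The 4 below were EMG1, GNL3, MRTO4 and EXOSC5. GNL3, the gene of nucleostemin, was the abundant one among them, at 26.9 RPKM at 4 hpf and 53.1 RPKM at 2 hpf. MRTO4, a large-subunit factor, was at 5.32 RPKM at 4 hpf and 9.09 RPKM at 2 hpf. EMG1, at 0.298 RPKM at 4 hpf and 2.28 RPKM at 2 hpf, passed the filter through the 2 hpf table only.

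General transcription factors of RNA polymerase III and its repressor, on 10 IDs of the list, included 0 called genes, where 7.85% of all genes were above and 21.2% below. They had a median relative difference of 0.50, from -0.50 to 0.99 for brf1a. The initiation factor subunit brf1a was at 40.04 RPKM at 4 hpf and 12.1 RPKM at 2 hpf. GTF3A, which binds the genes of the smallest ribosomal RNA, had 2 IDs, with 63.6 and 18.4 RPKM at 4 hpf and 24.5 and 6.88 RPKM at 2 hpf. The repressor MAF1 was close between the tables, at 13.4 RPKM at 4 hpf and 10.9 RPKM at 2 hpf. The 10 nucleolar helicases of the list had a median relative difference of 0.32, and none was called. The most abundant, DDX21, was at 325 RPKM at 4 hpf and 137 RPKM at 2 hpf.

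**Figure D4:**
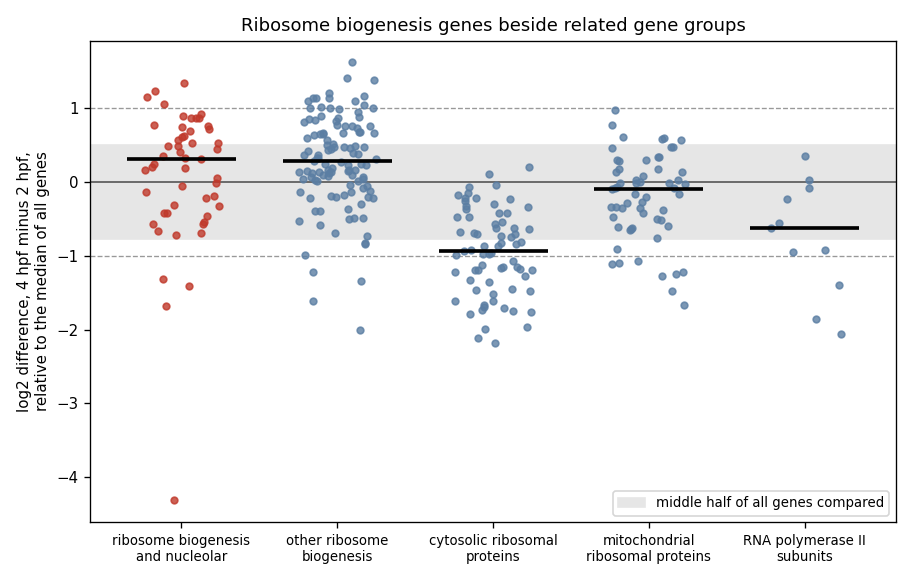
Relative log2 difference (4 hpf minus 2 hpf) of each gene in 5 groups, with the group's median as a black bar, the middle 50% of all genes compared in grey and 2-fold as dashed lines. Assembly genes have medians of 0.31 and 0.28, and the genes of the ribosomal proteins they assemble have a median of -0.93. Sideways spread is for display only.

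The genes for the proteins that these factors assemble lay elsewhere. The 70 measured cytosolic ribosomal protein genes had a median relative difference of -0.93, with 0 above and 30 below the all-gene median by 2-fold (42.9%). Of the 51 genes described here 4 were above and 4 below, and of all genes 7.85% and 21.2%. The median of the ribosomal protein genes was negative under every setting tried. The groups differed in level. Median RPKM was 12.3 at 4 hpf and 13.6 at 2 hpf for the ribosomal protein genes, against 23.8 and 18.1 for the 51. Members with a mean of 5 to 20 RPKM had a median relative difference of -0.10. The groups were not matched for level or gene length, and what these add was not tested. RPLP0 and 1 ID of RPL5, which joins the large subunit together with the smallest ribosomal RNA, were the only 2 above the all-gene median. This RPL5 ID was at 65.5 RPKM at 4 hpf and 37.99 RPKM at 2 hpf, and RPLP0 at 5.19 and 2.39 RPKM in the same order. The 59 mitochondrial ribosomal protein genes had a median of -0.09, with 0 above and 8 below (13.6%), a smaller share below than that of all genes. The 11 IDs with a polr2 symbol, mostly subunits of RNA polymerase II, had a median of -0.62, with 0 above and 3 below (27.3%). The 3 below were POLR2K, POLR2L and 1 ID of POLR2E, which are shared by RNA polymerases I, II and III and which the symbol rule did not take in. POLR2K was at 3.90 RPKM at 4 hpf and 11.9 RPKM at 2 hpf, POLR2L at 3.22 and 8.66 RPKM in the same order, and POLR2E at 9.13 and 15.9 RPKM. POLR2F, also shared, was at 20.1 RPKM at 4 hpf and 18.5 RPKM at 2 hpf. The other ID of POLR2E was at 1.52 RPKM at 4 hpf and 0.872 RPKM at 2 hpf. The 5 IDs of shared subunits had a median relative difference of -1.40, with 3 below (60%). The other 6 polr2 IDs had one of -0.35, with 0 below. This split of the polr2 IDs was not planned, and its contrast rests on the same 3 calls. No replicate values were at hand to test the differences between these groups.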

How the data were processed

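The authors deposited RPKM values in 1 table per age, with Ensembl gene IDs and a single column of values. That this column is a mean of replicates is taken from how the tables are named. Of the values written with 7 digits, 92.9% at 4 hpf and 92.7% at 2 hpf end in 5, a pattern that averaging 2 rounded values gives. The submitters' processing notes name bedtools 2.16.2, MACS2 2.0.10, TopHat2 2.1.1, Bowtie, Trimmomatic 0.36 and cutadapt 1.13, and build Zv9. Neither the order of these tools nor the annotation or the read total behind RPKM is stated there. All genes share that total, so a few dominant features lower all other values. Reads shared by near-identical copies may have been divided between them.

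A reference table gave symbols to 73.7% of the 27205 Ensembl IDs. Differences were log2(RPKM + 1), 4 hpf minus 2 hpf, less the median over all genes that reached 1 RPKM at either age, with an unlisted gene taken as 0. The calculation was tested on simulated data (Python 3.11.15, pandas 2.3.3). Every member could be named under its role. In the other lists, genes were named after their values were seen. The members and lists were chosen with earlier results of these data known. No genome of build Zv9 and no sequences were used here, so positions, lengths and sequences are not given.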

Additional observations from a re-analysis of the deposited data

How the results depend on the processing

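No paired analysis was possible because only 1 mean per age was given, which also leaves no replicate to omit. Without replicates, a median was counted as moved at 0.3 or more on the log2 scale and a count at over 1.5 times, tolerances chosen here. Against 4 members above and 4 below, a pseudocount of 5 gave 7 and 1, where 6.47% and 5.55% of all genes were called. Without a filter, which lets NOL4L in, there were 23 and 2 of 52, against 15% and 5.76% of all genes. As an absolute difference there were 24 and 2, against 33% and 10.9% of all genes. At a 4-fold threshold there were 0 and 1, against 0.0825% and 6.61%. With a filter of 5 RPKM 0 of 45 were above, against 3.56% of all genes. After scaling to an equal median ratio or by quantiles 1 was above, against 6% and 4.28% of all genes. After scaling without the 100 highest genes 2 were above, against 6.08%. After quantile normalization 6 were below, against 20.1% of all genes. Without polr3gla and polr3glb 2 were below. Leaving these genes out and the 4-fold threshold for members were chosen after seeing the data. The members' median of 0.31 was 0.89 with all listed genes kept, -0.015 at a minimum of 5 RPKM, -0.018 after quantile normalization and 0.97 as an absolute difference.

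For the other pathway genes, against 13 above and 4 below, a pseudocount of 0.1 gave 5 and 7, where 10.2% and 25.5% of all genes were called. There were 50 and 2 without a filter, 3 and 7 at a minimum of 5 RPKM or an equal median ratio, 2 and 9 after quantile normalization, 0 and 1 at a 4-fold threshold and 53 and 1 as an absolute difference. Scaling without the 100 highest genes gave 3 above, and a pseudocount of 5 gave 1 below. Their median of 0.28 was 0.87 without a filter and 0.94 as an absolute difference. The median of cytosolic ribosomal protein genes was -0.50 at a pseudocount of 5, -0.32 without a filter, -1.30 after quantile normalization and -0.27 as an absolute difference. That of mitochondrial ribosomal protein genes was 0.44 without a filter and 0.57 as an absolute difference. That of the genes with a polr2 symbol was -0.30 at a pseudocount of 5, -0.16 with all listed genes kept, -1.76 at a minimum of 5 RPKM and 0.040 as an absolute difference. Values without a filter rest on a lower all-gene median, 0.05. Those at a minimum of 5 RPKM rest on a higher one, 1.02, and on fewer genes. No median was taken off the absolute difference. For the other settings the cause was not tested.

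Over all genes, against 1047 above and 2832 below, a pseudocount of 5 gave 740 below. There were 4093 and 1566 with all listed genes kept, 250 and 1233 at a minimum of 5 RPKM, 571 above after quantile normalization and 11 and 882 at a 4-fold threshold. None of the 8 called members changed sign under any setting that gave it a value, and polr3glb had none at a minimum of 5 RPKM. The relative difference of polr3gla ran from -5.21 to -2.70 and that of NOL8 from 0.86 to 1.96, beside an absolute difference of 2.00 for NOL8. The protein lengths and promoter letters planned for these genes were not run, since no sequence was used here.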
